A study of Mus musculus with 12 samples.

Results

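The early loss and gain of N4-acetylcytidine (ac4C) peaks was followed in mouse peritoneal macrophages, phagocytes of the abdominal cavity, by setting the peak lists made after 24 h with interferon-γ (IFN-γ) against those made at 0 h. A protein-coding gene, or a region merged over lists at an overlap of at least 1 base, was called lost when both 0 h lists and neither 24 h list held a peak in it. It was called gained when the reverse held. Any of these 4 lists held a peak in 1546 protein-coding genes, of which 154 (9.96%) were lost and 43 (2.78%) were gained. Of 2348 merged regions, 205 (8.73%) were lost and 43 (1.83%) were gained. Counting every gene symbol of the tables, pseudogenes and long noncoding RNAs included, 175 of 1786 (9.8%) were lost and 50 (2.8%) gained. Over all 6 lists of the series, 1779 protein-coding genes and 2808 regions had a peak.

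The series holds 12 samples in 6 groups of 2, an ac4C-bound RNA group and a total RNA group at each of 0, 24 and 48 h. All cells were peritoneal macrophages kept in medium with 10% serum, no genetic change is given in the labels, and the libraries of total RNA are not analysed here. The 0 h cells stand for the start of IFN-γ exposure. No group without IFN-γ was kept to 24 h, so the cytokine and the time in culture cannot be told apart. Each list is named for its hour only. List 1 and list 2 of a time are names without an order, and the number pairs nothing. Whether the paired samples of a group were separate animals or cultures is not in the labels. Every SD below therefore measures the spread between lists, which may be technical, and the permutation p-values take lists as their units. The authors' p of a peak sets pull-down against background within a list and holds no spread between lists.

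NAT10 is the acetyltransferase that adds an acetyl group to cytidine in RNA, in ribosomal RNA, in some transfer RNAs with the help of the adaptor THUMPD1, and in messenger RNA. In messenger RNA the mark has been tied to transcript stability and to translation, and its reported effect depends on where in the transcript it lies. IFN-γ is the main cytokine of classical macrophage activation and acts through its receptor and the JAK kinases to induce antigen presentation and antimicrobial genes. A peak is a stretch where the pull-down exceeded the background of the peak caller. It therefore depends on the amount of the transcript as well as on the share of its copies that carry the mark, and a missing peak means a value under the authors' threshold, not an absent mark. In these bulk libraries fewer cells and less RNA per cell cannot be told apart either.

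Fewer peaks were found at 24 h in the deposited lists, with the largest difference in 3′ UTRs, lower numbers in last exons and outside genes as well, and no lower number in internal exons as deposited. The 0 h lists held 639 and 476 peaks centred in a 3′ untranslated region (3′ UTR), and the 24 h lists held 313 and 244. Both 24 h values lay below both 0 h values, and the mean went from 557.5 ± 115 to 278.5 ± 48.8 (SD, n = 2 lists each), a log2 ratio of -1.001. Last exons outside the 3′ UTR held 183 and 176 peaks at 0 h and 128 and 136 at 24 h, a log2 ratio of -0.44. Exons that are neither the last nor a UTR are called internal exons here for short. First exons outside the UTR are included and were not counted apart. Internal exons so defined held 141 and 139 peaks at 0 h and 150 and 150 at 24 h, a log2 ratio of 0.10. Internal exons were thus the one place of the 6 whose mean number was not lower at 24 h. Peaks in 5′ UTRs numbered 29 and 31 against 27 and 21, those in introns 56 and 43 against 42 and 44, and those outside genes 103 and 81 against 65 and 51. The groups overlapped for introns only.

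As a share of a list, internal exons went from 12.3% and 14.7% at 0 h to 20.7% and 23.2% at 24 h, a difference of 8.48 percentage points, while the 3′ UTR share was 55.5% and 50.3% against 43.2% and 37.8%. For both shares the groups did not overlap, and the two-sided exact permutation p was 0.33, the smallest that 2 lists against 2 can give, or 0.667 after Benjamini-Hochberg adjustment over the 6 places. For the total number of peaks, 1151 and 946 against 725 and 646, the exact p was also 0.33. The test therefore cannot reach 0.05 for any of these measures, and the comparison rests on the sizes and on the absence of overlap. The internal exon peaks were the weakest of the exonic ones. Of them, 34.0% and 30.2% had a q of 0.05 or less at 0 h and 26.0% and 26.7% at 24 h, and 52.7% and 58.7% of those at 24 h had a q of 1. Of the 3′ UTR peaks, 52.1% and 50.2% had a q of 0.05 or less at 0 h and 40.6% and 36.1% at 24 h. With only peaks at a q of 0.05 or less, internal exons held 48 and 42 peaks at 0 h and 39 and 40 at 24 h, which turned the log2 ratio to -0.19, and the 3′ UTR ratio was then -1.41. At a q of 1e-05 or less the internal exon ratio was -1.11. In the 48 h lists, internal exons held 127 and 70 peaks and 3′ UTRs 312 and 363.

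**Figure D1:**
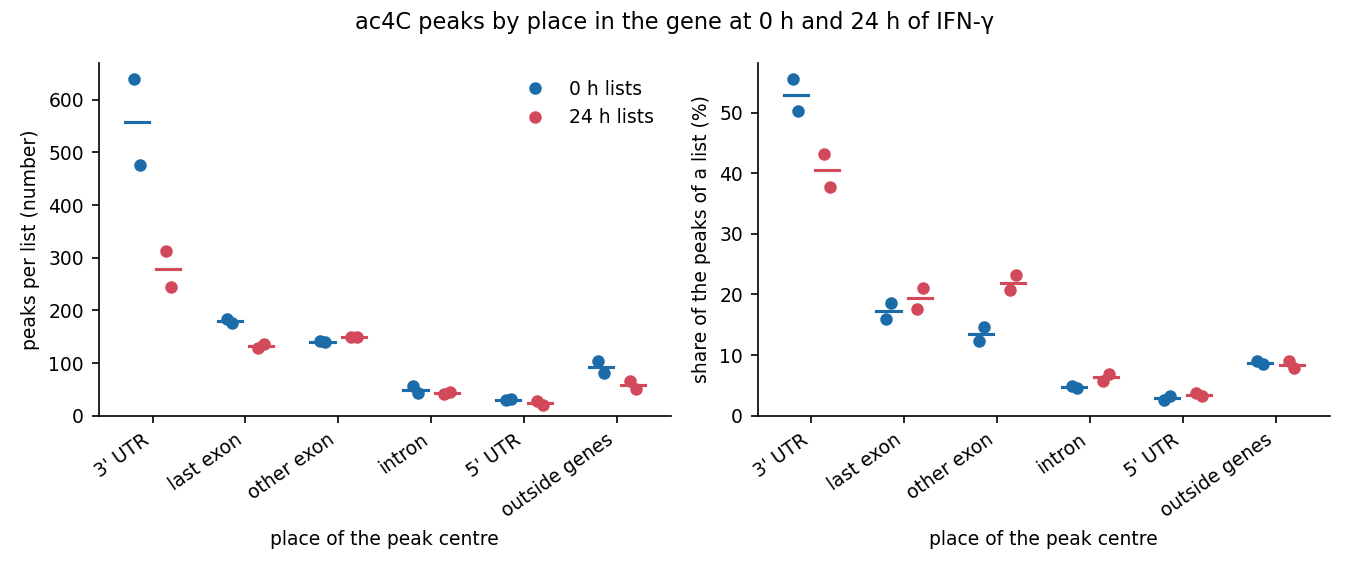
Number of ac4C peaks per list (left) and share of the peaks of a list in percent (right) by the place of the peak centre, with 1 point per list and a line at the mean of the 2 lists of a time. The 3′ UTR points of 24 h (313 and 244) lie below those of 0 h (639 and 476), while the internal exon points (labelled other exon) lie at 150 and 150 against 141 and 139.

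The depth behind the lists differed between the times. Input coverage, recovered from the authors' fold and p at each summit, was 73.7% and 80.8% in the 24 h lists against 100% and 91.4% in the 0 h lists, as percentages of the deepest list. Pull-down coverage was the other way round, 100% and 98.0% at 24 h against 91.5% and 78.0% at 0 h. A q of 1 was attached to 25.0% and 26.2% of the peaks in the 0 h lists and 39.2% and 45.4% in the 24 h lists. At matched input coverage the log2 ratio was -0.90 for 3′ UTR peaks and 0.26 for internal exon peaks. Of 46 genes for macrophage identity and surface receptors, 17 had a peak in the 4 lists. Among the defining markers, Itgam had a peak in both 0 h lists and in neither 24 h list, and Lyz2 in a single 0 h list. Adgre1, Csf1r, Cd14 and Cd68 had no peak in the 4 lists. No gene in the lists for other cell types (mesothelial cells and fibroblasts, B cells, T and NK cells, neutrophils, mast cells and eosinophils, dendritic cells, red cells and platelets) had one there.

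Regions allowed the fate of single peaks to be followed. Of the 229 3′ UTR regions found in both 0 h lists, 117 (51.1%) had no peak in either 24 h list, 65 had one in a single 24 h list and 47 were in all 4 lists. Of the 86 last-exon regions, 31 (36.0%) were lost and 30 were in all 4. Of the 44 internal exon regions, 23 (52.3%) were lost, and of the 40 outside genes 22 (55.0%). Once present in both 0 h lists, then, an internal exon region was lost about as often as a 3′ UTR region, against 48.3% over all 424 regions. These places differed on the other side. Of the 36 internal exon regions in both 24 h lists, 14 (38.9%) were gained, against 15 of 78 (19.2%) in 3′ UTRs and 6 of 49 (12.2%) in last exons, and 22.2% over all 194. These regions were defined by the same lists, so the shares are descriptions without a test.

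**Figure D2:**
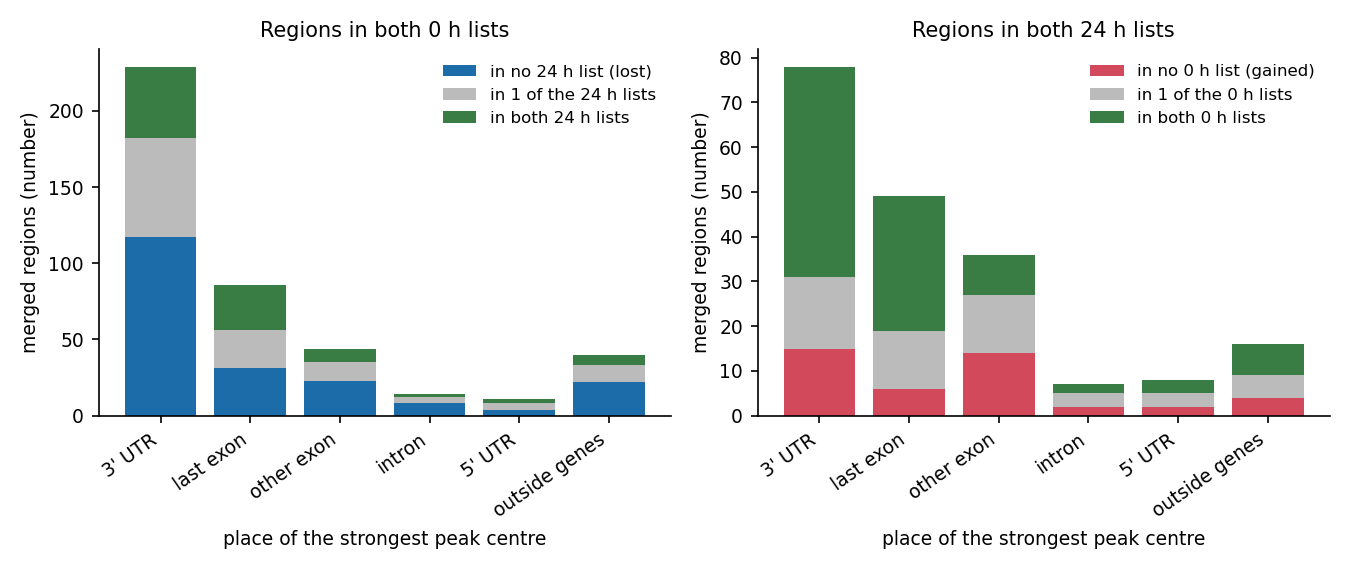
Merged regions found in both 0 h lists (left) and in both 24 h lists (right), by place, divided by the number of lists of the other time that also held them; the bars count regions. In 3′ UTRs 117 of 229 regions were lost, and in internal exons (labelled other exon) 14 of 36 regions were gained.

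A lost region did not always empty its gene. Of the 205 lost regions, 130 lay in genes with no peak left at 24 h, 44 in genes that had another peak in a 24 h list and 31 on no protein-coding gene. Of the 43 gained regions, 26, 11 and 6 fell in these classes, with 0 h in place of 24 h. Eif3a, the largest subunit of translation initiation factor eIF3, kept a peak in all 4 lists and lost 3 regions. They were a 3′ UTR region at chr19:60750515-60750744 (−log10 p of 6.33 and 7.56 in the 0 h lists) and internal exon regions at chr19:60757103-60757396 (3.70 and 7.54) and chr19:60758230-60758527 (6.45 and 3.33). Myh9, the heavy chain of non-muscle myosin IIA, likewise lost 2 internal exon regions at chr15:77656010-77656250 (9.15 and 11.7) and chr15:77658134-77658363 (3.36 and 4.70). Its 3′ UTR region, at 24.8 and 7.96 at 0 h, was in all 4 lists. Within one transcript, therefore, some regions were lost while another was still called.

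Both 0 h lists held a peak in 372 genes, of which 154 were lost, 112 were still called in a single 24 h list and 106 in both. Since only these 372 could be lost, the share to hold a group against is 41.4%, and the counts of gene groups below are descriptions without a test. Agreement between the lists of a time was limited: 372 of the 1155 genes of 0 h (32.2%) and 192 of the 813 genes of 24 h (23.6%) were in both lists. A further 579 genes were called in a single 0 h list and neither of 24 h, and 348 the reverse. Leaving out 0 h list 1 or list 2, so that a single 0 h list sufficed, raised the lost genes to 411 and 476, and leaving out 24 h list 1 or list 2 raised the gained genes to 200 and 234.

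**Figure D3:**
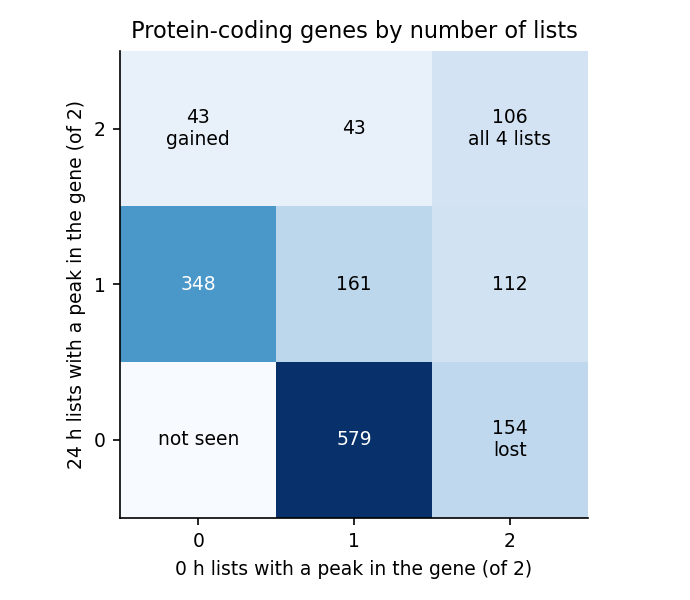
Protein-coding genes by the number of 0 h lists (horizontal) and of 24 h lists (vertical) that hold a peak in them; the number in each square counts genes. The 154 lost genes are at the lower right, the 43 gained genes at the upper left and the 106 genes of all 4 lists at the upper right.

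Lost genes had a lower −log10 p at 0 h than those that stayed. A call is itself a threshold on p, so strength and staying are linked by the rule, and the medians are a description. The median −log10 p of the strongest peak in the 2 lists of 0 h was 6.68 and 5.89 for lost genes, 7.54 and 7.58 for genes still called in a single 24 h list, and 11.4 and 10.3 for those in both. The same medians in recovered pull-down fragments were 53 and 47.5, 79.5 and 64.5, and 129 and 108. Fold enrichment did not follow that order: its medians were 3.03 and 3.00 for lost genes and 2.76 and 2.92 for genes in all 4 lists. The difference in p thus went with more fragments and more input (median input coverage of 7.08 and 6.64 against 16.4 and 14.6 fragments), not with a higher fold. Of the 154 lost genes, 64 had a q of 0.05 or less in both 0 h lists and 13 a q of 1 in both. Of the 43 gained genes these numbers were 7 and 11 in the 24 h lists. At the authors' threshold, the weakest lost genes were Jarid2 (−log10 p of 2.34 in 0 h list 1) and Arid3a (2.42 in list 2), and the weakest gained ones AA467197 (2.44 in 24 h list 1) and Ppfia1 (2.34 in list 2). The strongest peak lay in the 3′ UTR for 108 of the lost genes (70.1%), 20 of the gained (46.5%) and 59 of the genes in all 4 lists (55.7%), and in internal exons for 16 (10.4%), 12 (27.9%) and 16 (15.1%).

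Genes are given below with the authors' −log10 p of their strongest peak in each list, and fold is the authors' enrichment at that summit. The values of the lists can come from different peaks of a gene, as among the lost genes named below for Sfpq, Prdx1, Syncrip, Tardbp, Lyn, Hnrnph1, Hnrnpab, Cd44, Dnaja2 and Top1. The highest-ranked lost gene was Ptma, which encodes prothymosin α, an acidic nuclear protein. Its 3′ UTR peak (ENSMUSG00000026238, chr1:86458127-86458390) had a −log10 p of 40.3 and 87.9 in the 0 h lists, from 477 and 462 pull-down fragments over an input coverage of 70.0 and 38.0. Its fold was 2.95 and 5.57, so list 2 had a similar pull-down over a lower input. Next came a 3′ UTR peak at chr15:102407016-102407247, at 30.6 and 37.8, which lies in both Pcbp2, a poly(C)-binding hnRNP, and Map3k12, a kinase upstream of JNK, whose annotated ends overlap. The lists do not tell which of the 2 transcripts carried it. Npm1, nucleophosmin, followed with a 3′ UTR peak (ENSMUSG00000057113, chr11:33102557-33102801) at 27.0 and 29.8, from 271 and 234 fragments.

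Of 30 genes for the nucleolus and ribosome assembly, 9 had a peak, 4 had one in both 0 h lists, 3 were lost and 1 gained. That is 3 of 4, too few to set against 154 of 372 over all genes. Besides Npm1, the helicase gene Ddx21 lost an exon 2 peak (12.0 and 7.03), and Ebna1bp2, a ribosome assembly factor, lost one at its last intron and exon (4.09 and 4.34, both with a q above 0.05). Ncl, nucleolin, had a peak in all 4 lists, at 24.2 and 21.0 at 0 h and 21.6 and 17.7 at 24 h. Gnl3, nucleostemin, was gained with an exon 2 peak at 2.96 and 4.33, close to the threshold. Rsl24d1, a ribosome assembly factor outside that list, lost a 3′ UTR peak (24.4 and 12.3; fold 6.59 and 3.89). Among 85 cytosolic ribosomal protein genes 10 had a peak, and the only 2 with a peak in both 0 h lists, Rpl39 (7.66 and 10.2) and Rplp1 (10.6 and 7.91), lost it. Of 36 translation factors, 15 had a peak, Gspt1, the release factor eRF3a, was lost (5.31 and 4.33) and Etf1, its partner eRF1, was gained (2.62 and 4.35).

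RNA-binding proteins of the hnRNP class, which coat nascent transcripts and guide splicing and transport, gave the most losses of any list. Of 30 genes listed, 16 had a peak, 12 had one in both 0 h lists, 6 were lost and none was gained. That is 6 of the 12 members in both 0 h lists, beside 41.4% of all genes in both, so the list lies near that background. Hnrnpl lost a last-exon peak at 9.59 and 15.3. Tardbp, which encodes TDP-43, was lost at 11.7 and 3.16, in 3′ UTR peaks at different places. Syncrip was lost at 13.8 and 4.87, in internal exon peaks at different places, and its single lost region lay in the 3′ UTR (4.85 and 3.23). The other losses were Hnrnph1 (4.33 and 5.14), Hnrnpab (3.02 and 6.13) and Pcbp2, above. In 4 of the 6, at least 1 of the 0 h peaks had a q above 0.05, Pcbp2 and Hnrnpl being the exceptions. The peaks of Hnrnpd, Hnrnpk, Hnrnpm and Hnrnpu were in all 4 lists, so the class did not move as one, and Hnrnpa2b1 and Ptbp1 were called in both 0 h lists and in a single 24 h list.

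SR proteins bind exonic enhancers and promote splice site choice. Of 33 genes for SR proteins and splicing factors, 19 had a peak, 8 in both 0 h lists, and 4 of these were lost, near the 41.4% of all such genes. Srsf1 lost a 3′ UTR peak (chr11:87941649-87942166) at 16.7 and 13.1, and Srsf3 a last-exon peak at 13.1 and 11.5. Srsf2 lost a 3′ UTR peak at 2.48 and 2.55, near the threshold, at a place it shares with Mettl23. Sfpq, a paraspeckle protein with a role in splicing, was lost at 12.9 and 16.9, but its peaks lay in an internal exon in 1 list and in the 3′ UTR in the other, so no single region carried that loss. Srsf5, Srsf6 and Rbm25 were called in both 0 h lists and in a single 24 h list. Ddx5, an RNA helicase, was the only gain in the list, with a 3′ UTR peak at 6.40 and 2.50.

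Genes for readers of another RNA mark had few peaks. Of 24 genes for RNA acetylation and for the writers, readers and erasers of N6-methyladenosine (m6A), 6 had a peak, and the only 2 in both 0 h lists were lost: Ythdc1, the nuclear m6A reader, with an exon 3 peak at 14.0 and 4.75 (fold 7.53 and 2.75), and Ythdf2, a cytoplasmic m6A reader that speeds decay, with a 3′ UTR peak at 3.16 and 5.47. A count of 2 cannot be set against the 41.4% of all genes, and neither passed a q of 0.05 in both 0 h lists. Nat10 and Thumpd1 themselves had no peak in the 4 lists or at 48 h.

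Chaperone losses were led by Hsp90ab1, the constitutive cytosolic HSP90. Its peak in exon 6 (chr17:45881268-45881577) had 465 and 389 fragments in the 0 h lists and a −log10 p of 27.2 and 27.9. Of 31 genes for cytosolic chaperones and co-chaperones, 14 had a peak, 5 in both 0 h lists, and 2 were lost. The other was Dnaja2, an HSP40 co-chaperone, whose 2 lost regions, in an internal exon and the 3′ UTR, were all at a q of 1. Of 17 genes for chaperones of the endoplasmic reticulum 9 had a peak and Pdia6, a disulfide isomerase, was lost (8.45 and 5.47).

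Small GTPases showed losses beside many peaks that stayed. Of 46 small GTPase genes, 19 had a peak, 12 in both 0 h lists, 4 were lost and 7 were in all 4 lists. Cdc42, which organises actin at the leading edge, lost a 3′ UTR peak at 13.1 and 14.5, from 337 and 321 fragments. Rhob, an endosomal small GTPase, lost a 3′ UTR peak at 13.9 and 12.6. Arf6, which acts in membrane recycling at the cell surface, lost last-exon peaks at 19.0 and 5.20, and Rab21, an endosomal Rab, a 3′ UTR peak at 6.70 and 4.09. Rab7, Rab8b, Rab18, Rap2b, Arf3, Arf4 and Arf5 were called in all 4 lists. For Rab7, of late endosomes, the −log10 p was 57.6 and 63.2 at 0 h and 25.7 and 22.4 at 24 h, while its folds were 2.93 and 3.16 against 2.90 and 2.61.

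Of 42 actin cytoskeleton genes 15 had a peak, 8 in both 0 h lists, and 1 was lost: Actn4, an actin crosslinker, in a 3′ UTR peak shared with Capn12 (5.19 and 14.9). Actb, Cfl1, Actr2, Actr3, Myh9 and Marcks were in all 4 lists. Of 17 genes for tubulins and microtubules 3 had a peak, 2 in both 0 h lists; Tuba1c, an α-tubulin, was lost (12.8 and 11.7) and Kif5b, a kinesin, was called in a single 24 h list. Ppp1r12a, the targeting subunit of myosin phosphatase, lost 2 last-exon regions, the stronger at 9.16 and 9.80.

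Signalling genes lost peaks of different strength. Of 54 genes for signalling adaptors, kinases and phosphatases 22 had a peak, 9 in both 0 h lists, and 4 were lost. Besides Map3k12, these were Lyn, a Src family kinase of myeloid cells (4.41 in the last exon and 6.12 in the 3′ UTR), Ppp1cb, a catalytic subunit of protein phosphatase 1 (9.64 and 6.90), and Adcy9, an adenylyl cyclase. The Adcy9 peak, at 12.9 and 41.9, overlaps the pseudogene Gm6142 inside intron 4, so its gene is uncertain. Calm2, which encodes calmodulin, the calcium sensor, lost a 3′ UTR peak (chr17:87741012-87741390) at 20.1 and 18.9. Casp8, the initiator caspase of death receptors, lost a last-exon peak (chr1:58885895-58886154) with a fold of 9.31 and 8.13, from 62 and 50 fragments over an input coverage of 2.02 and 2.00, and was among the 4 genes lost under each of the 6 settings that changed the threshold, the length or depth of the lists or the assignment to genes. Sfpq was another, and the others, Hook3, a linker of dynein, and Cyb5r1, a reductase, were picked out after their values were seen (−log10 p of 11.0 and 17.1, and of 13.2 and 10.7).

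Further named losses were as follows. Cdkn1c, the CDK inhibitor p57, lost an exon 2 peak at 17.2 and 23.5, at a place that also carries the unmatched symbol Gm44732. Bhlhe41, a transcriptional repressor of large peritoneal and alveolar macrophages, lost 2 regions, in the 3′ UTR (13.1 and 11.4) and in the last exon (9.38 and 7.87). Mbnl1, a splicing regulator, lost 2 neighbouring 3′ UTR regions, the stronger at 9.43 and 9.31, and Pacs2, a sorting protein, and Coa5, an assembly factor of cytochrome oxidase, lost 2 each. Tmem256 lost a last-exon peak at 16.6 and 13.7. Hsd17b4 (28.6 and 20.05) and Tmem132d (16.3 and 22.5) were lost through intronic peaks, the former on the pseudogene Cd63-ps, and neither is counted as lost when genes are assigned by exon. For Bhlhe41, Ppp1r12a, Mbnl1, Coa5, Pacs2 and Dnaja2 the gene was thus emptied at more than 1 place. Qk, an RNA-binding protein gene, and Wnk1, a kinase gene, lost 2 regions each but had other peaks at 24 h, and the Qk regions lay in introns.

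Of 29 genes for iron, haem and redox balance, 9 had a peak, 5 had one in both 0 h lists and 3 of these were lost, too few to set against the 41.4% of all such genes. Tfrc, the transferrin receptor, went from 15.5 and 10.0 to no call. Gpx1, glutathione peroxidase, lost a last-exon peak at 25.3 and 7.56, from 486 and 326 fragments. Prdx1, a peroxiredoxin, was found in an intron in list 1 (6.68) and in the last exon in list 2 (33.0), so that its loss rests on 2 different places. Hmox1, haem oxygenase, and Cat, catalase, were in all 4 lists. The Cat peak had a fold of 4.93 and 4.76 at 0 h and 2.57 and 2.19 at 24 h. Of 47 genes for oxidative phosphorylation 11 had a peak, Sdhd, a membrane anchor of complex II, was lost (9.02 and 7.89), and the mitochondrially encoded mt-Nd2, mt-Nd5 and mt-Cytb were in all 4 lists.

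Of the genes for macrophage identity and surface receptors, 8 had a peak in both 0 h lists and 2 of these were lost. Itgam, the CD11b integrin chain, had 2.60 and 2.58 as folds at 0 h, from 200 and 158 fragments, and no peak later. Cd44, the hyaluronan receptor, was lost at 8.29 and 2.55, in 3′ UTR peaks at different places. Itgb1, Cd9, Cd53 and Ptprc were in all 4 lists. Of 39 genes for alternative activation and repair 9 had a peak, and Il10rb, a shared chain of cytokine receptors, was lost (9.99 and 22.6), while Stat6, Spp1 and Hmox1 were in all 4 lists. Tapbp, which loads peptides onto MHC class I, was the only 1 of 23 class I genes in both 0 h lists and was lost, at 6.01 and 5.22.

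**Figure D4:**
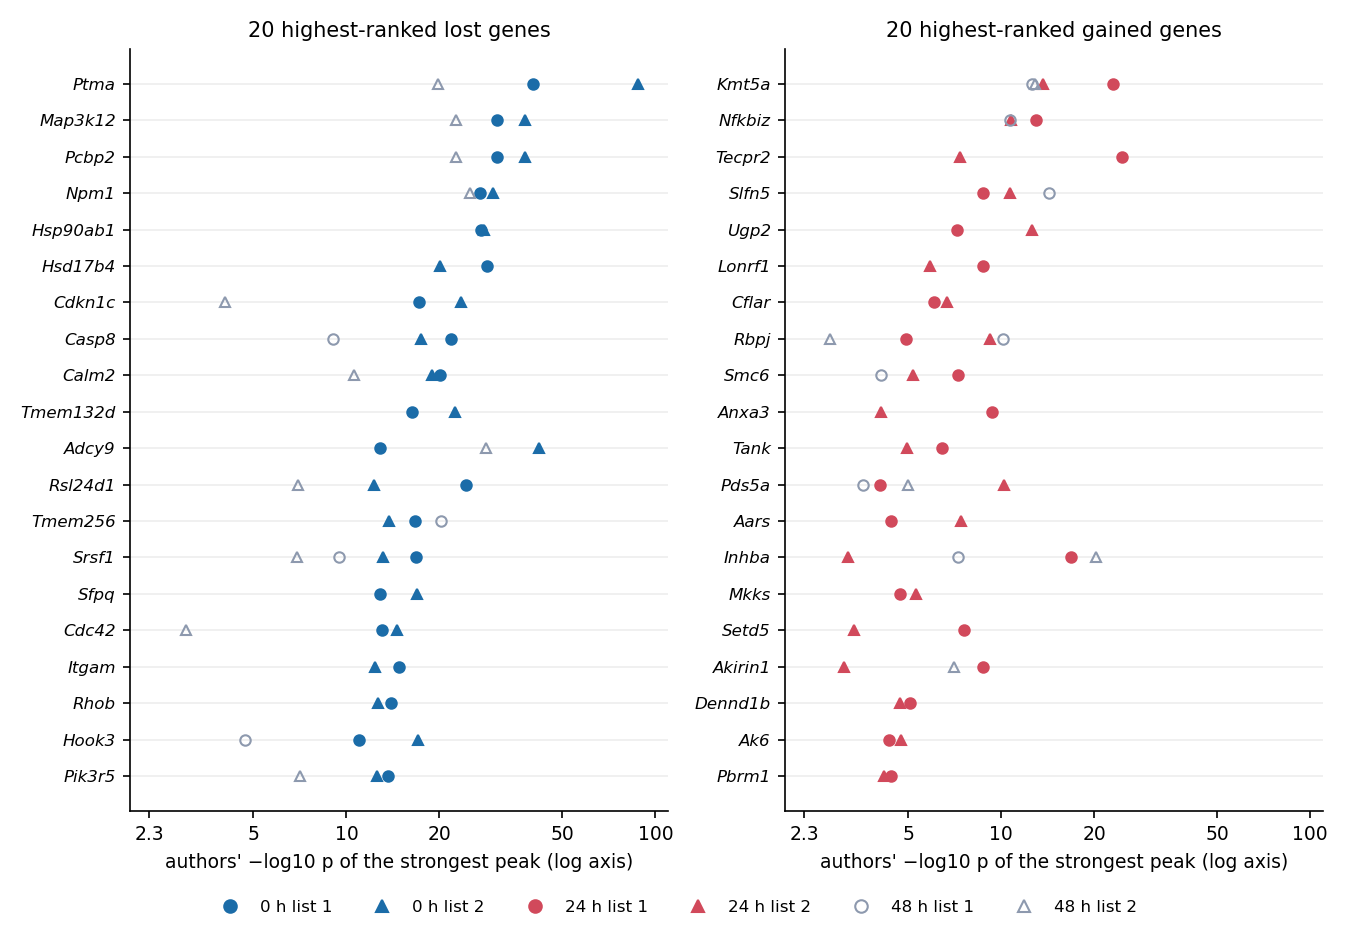
Authors' −log10 p (log axis) of the strongest peak of the 20 highest-ranked lost genes (left) and gained genes (right), with filled blue symbols for 0 h, filled red ones for 24 h and open grey ones for 48 h, and circles and triangles for list 1 and list 2. The lost genes reach 87.9 for Ptma, the gained genes 24.6 for Tecpr2, and a list without a peak has no symbol.

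Gained genes were fewer than lost ones. Their strongest peak had a median −log10 p of 4.40 and 4.08 at 24 h, against 6.68 and 5.89 for lost genes at 0 h. The median fold was 2.99 and 3.08 against 3.03 and 3.00, and the depth of the lists differed between the times. The 2 highest-ranked gained genes were Kmt5a and Nfkbiz. Kmt5a, the histone H4 lysine 20 monomethyltransferase, had a 3′ UTR peak at 22.97 and 13.6 in the 24 h lists, from 239 and 206 fragments. Only genes in both 24 h lists could be gained, and over all genes 43 of those 192 were. Of 63 genes for chromatin and transcription 35 had a peak, 4 were gained and 2 lost. The other gains were Rbpj, the DNA-binding factor of Notch signalling (4.91 and 9.16), Pds5a, a cohesin regulator (4.06 and 10.2), and Zmiz1, a transcriptional coactivator (6.50 and 2.44). For Pds5a and Zmiz1 the peaks of the 2 lists lay at different places, and no single region carried the gain. The losses, Ctcf (3.53 and 3.25) and Top1 (2.34 and 3.53), were at a q of 1 in both lists. Smc6, of the SMC5/6 complex, was gained at 7.26 and 5.18, also without a single region.

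Of 41 genes for inflammatory mediators and NF-κB, 12 had a peak, 2 were gained, none was lost, and Ccl9 and Nfkbia were in all 4 lists. Nfkbiz, the nuclear IκB protein IκBζ, had a 3′ UTR peak (chr16:55632407-55633007) at 13.0 and 10.8, a fold of 4.45 and 3.74, from 109 and 102 fragments. Inhba, the activin A subunit, was gained at 16.7 and 3.19, with the strongest list 1 peak in the 3′ UTR and the list 2 peak annotated to the 5′ UTR. That 5′ UTR region, shared with B230303A05Rik, was in both 24 h lists, at 15.9 in list 1 and 3.19 in list 2. Cflar, the c-FLIP inhibitor of caspase-8, was gained with 3′ UTR peaks at 6.04 and 6.65, though no single region carried it, while the Casp8 peak was lost. Tank, an adaptor of TRAF signalling, was gained in its last exon at 6.45 and 4.96. Each of these genes is a single case, and the list has too few members with a peak to describe a direction.

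Among interferon-induced effectors, 6 of 57 had a peak in the 4 lists. Slfn5 was gained in its 3′ UTR (chr11:82855426-82855649) at 8.74 and 10.7, from 95 and 92 fragments over an input coverage of 7.00 in each. Slfn2 was in all 4 lists. Ctss, a lysosomal protease of class II antigen processing, was gained at 3.61 and 3.36, at a q of 1 in both lists, and was the only gain of 17 class II genes and of 40 lysosomal genes. Of 24 genes for the IFN-γ receptor, JAK, STAT and IRF proteins 4 had a peak, and none was lost or gained. None of the 20 glycolytic genes or the 47 genes for ubiquitin and the proteasome was lost or gained, with 4 and 16 of them having a peak. Only genes in both 0 h lists could be lost. These were 1 gene of the IFN-γ receptor list, 0 glycolytic genes and 1 gene for ubiquitin and the proteasome. The absence of losses therefore says nothing about these lists.

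Further named gains were as follows. Ugp2, which makes UDP-glucose, was gained at 7.18 and 12.6, with its strongest peaks in the 5′ UTR in list 1 and in the 3′ UTR in list 2. Its gained region lay in an internal exon, at 2.98 and 2.43, near the threshold. Lonrf1 was gained in the 3′ UTR at 8.71 and 5.86, at a fold of 5.99 and 4.29. Anxa3, an annexin, had 9.35 in the 3′ UTR and 4.08 in an internal exon, the latter at a q of 1. The Tecpr2 peak, at 24.6 and 7.34, lay in intron 3 and on the ribosomal protein pseudogene Rps19-ps6, so its gene is uncertain. AA467197, the host transcript of Mir147, was gained at 2.44 and 5.85, in an intron in list 1 and in list 2 in the last exon at chr2:122482617-122482982, a peak that also covered Mir147. This was the only microRNA gene covered by a peak of a lost or gained gene, and its mature strand held by RefSeq (GRCm38.p6), 24 bases long, is printed for that reason, with the seed (bases 2 to 8) in capitals.
mmu-miR-147-5p: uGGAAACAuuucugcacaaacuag
The list 2 peak had 56 fragments and a −log10 q of 1.31, and it gives no level of the mature microRNA.

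The genes of all 4 lists show what a retained peak looked like. Kpna4, an importin α, had 91.1 and 96.9 at 0 h and 56.2 and 65.3 at 24 h, in an intron that also carries Gm22009. Arf3 had 52.7 and 37.8 against 29.3 and 22.5, and Gsk3b, a kinase of glycogen and Wnt signalling, 38.5 and 29.4 against 16.6 and 20.4. Both stood lower at 24 h in each list. Cfl1, cofilin, overlapped, with 30.8 and 28.1 against 31.8 and 30.5, and Ifrd1 stood higher in both 24 h lists, at 27.2 and 28.2 against 17.5 and 24.8. Over the 106 genes the median −log10 p was 11.4 and 10.3 at 0 h and 7.94 and 6.89 at 24 h, and the median fold 2.76 and 2.92 against 2.81 and 2.59. These values come from lists of different depth and are set side by side without a test.

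The lists of 48 h, which did not enter the choice of members, were set beside these patterns. Of the 154 lost genes, 101 had no peak at 48 h, 47 had one in 1 list and 6 in both. The 6, Srsf1, Arf6, Syncrip, Ctnnd1, Ap2s1 and Irak2, include 3 picked out after their values were seen (Ctnnd1, Ap2s1 and Irak2). Srsf1 stood at 9.46 and 6.91 at 48 h, below its 0 h values in −log10 p. Its fold was 4.42 and 4.21 at 48 h, above the 3.88 and 3.45 of 0 h. Input coverage at 48 h was 57.2% and 44.5% of the deepest list, so the p-values of the times are not on one scale. Of the 43 gained genes, 28 had no peak at 48 h, 7 had one in 1 list and 8 in both, and of the 106 genes in all 4 lists 59 were in both 48 h lists and 7 in neither. Most genes lost or gained in the 24 h comparison thus had no call at 48 h. The 48 h lists held a peak in 799 of the 1779 protein-coding genes of the series, so a missing call was common there. These counts are therefore no result about the lost or gained genes.

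**Figure D5:**
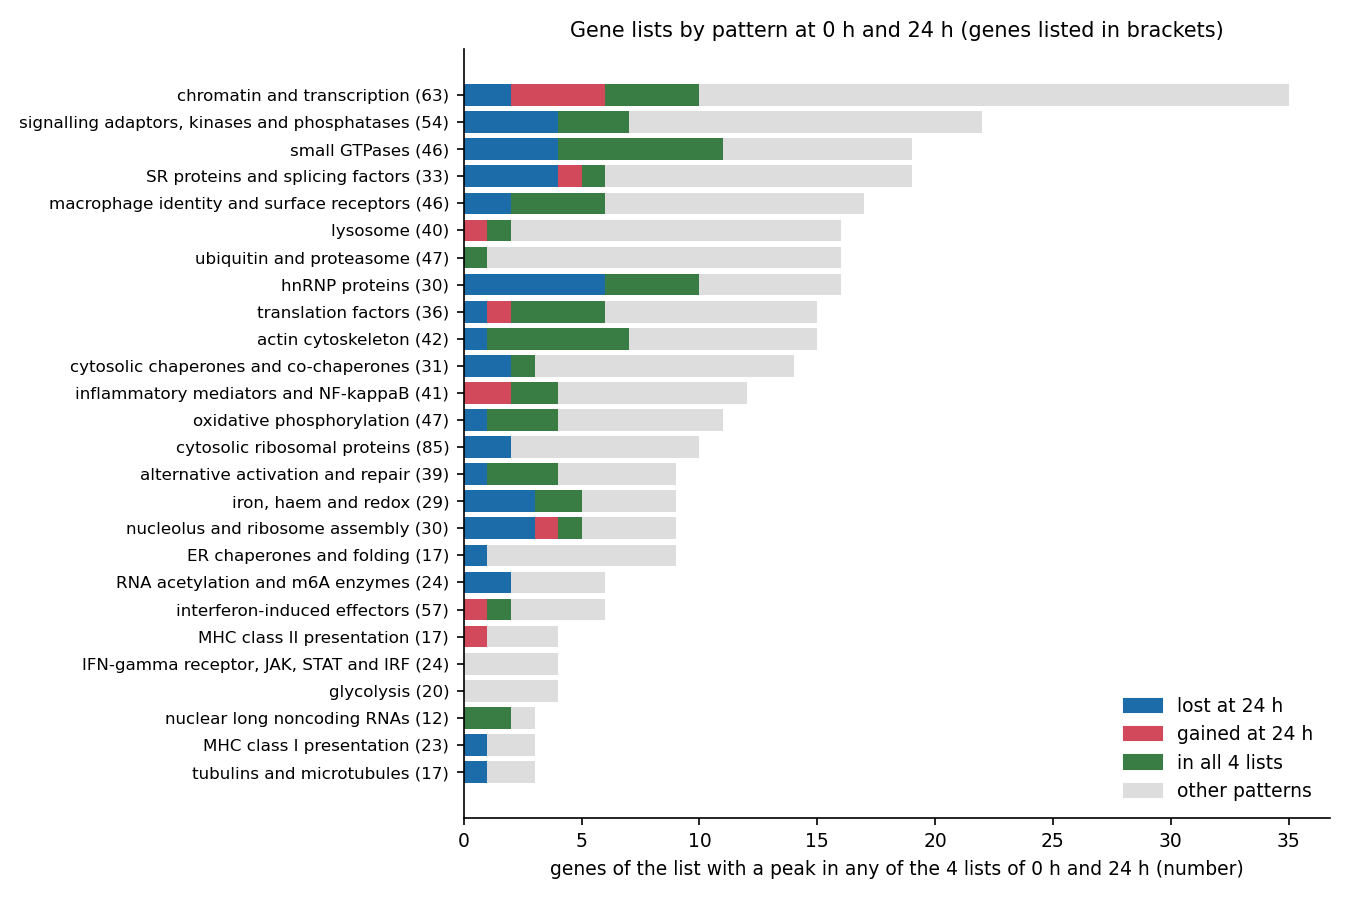
Genes of each list with a peak in any of the 4 lists of 0 h and 24 h (bar length, number of genes), divided into lost, gained, in all 4 lists and other patterns, with the number of genes listed in brackets; lists with fewer than 3 such genes are not drawn. The hnRNP list has 6 lost of 16, and the chromatin and transcription list 4 gained of 35. Over all 1546 protein-coding genes with a peak, 154 were lost and 43 gained. Among genes in both 0 h lists, 6 of 12 hnRNP genes were lost, near the 154 of 372 over all genes.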

How the data were processed

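Peak lists of ac4C-bound RNA, 2 per time, were compared between 0 h and 24 h of IFN-γ. BWA 0.7.12, MACS2 2.1.0 and GRCm39 are named in the submitters' processing notes, without roles or settings. Per the file headers, the deposited tables give each summit's fold enrichment (a ratio over background) and its p-value and q-value as −log10, with the authors' gene annotation. The lists are not pooled over a time. The control library of a list is unstated in the labels and is called input. BWA does not align across splice junctions, and how fragments from gene copies such as pseudogenes were placed is not given; peaks of Ptma, Npm1 or Hsp90ab1 could be affected. Starts are printed as deposited and may be off by 1 base.

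Summits that share chromosome, start and end were 1 peak, with the values of the best summit. The annotated centre gave place and gene; where annotations differed, a 3′ UTR came before a 5′ UTR, these before exons, the last exon before others, and introns came last. Protein-coding genes were named through a RefSeq table of GRCm38.p6, which matched 95.2% of 2062 symbols. Whole pull-down fragments and input coverage were recovered from fold and p for 100% of summits in each list, assuming a Poisson p; the median summit held 45 to 51 fragments, and the library totals are unknown. Numbers and shares were tested by two-sided exact permutation over lists; lost and gained genes are counts. Named were the 15 highest-ranked lost, 12 gained and 6 genes of all 4 lists (by mean percentile of −log10 p within the lists), lost or gained members of 33 gene lists, genes with 2 or more lost regions, Nat10 and Thumpd1. The members and lists were chosen with earlier results of these data known. The code was tested on simulated lists. Python 3.11.15, numpy 2.4.6, pandas 2.3.3 and scipy 1.17.1 were used. Alternatives were a q of 0.05 or 1e-05, a fold of 4 or more, equal list length (646 peaks), matched input coverage (p of 0.005), assignment by exon, all symbols, other overlap and place rules, and leaving out each list.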

Additional observations from a re-analysis of the deposited data

How the results depend on the processing

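The numbers of peaks and of genes, the covered length and the 3′ UTR number and share were lower at 24 h under every alternative run; equal list length fixes the number of peaks. The count of lost genes was 101 at a q of 0.05 or less, 57 at a q of 1e-05 or less, 21 with folds of at least 4 and 87 at equal list length; 64, 30, 14 and 83 of these were among the 154. The gained genes numbered 11, 7 and 7 under the first 3 settings and 62 at equal list length. Lost regions numbered 121, 75, 29 and 120 under the 4 settings, and gained regions 15, 9, 4 and 71. At matched input coverage 141 genes were lost and 43 gained. Leaving out 1 list, which relaxes the rule, gave 196 to 476 lost and 61 to 234 gained genes, and 250 to 767 lost and 64 to 389 gained regions. The internal exon number turned to -0.19 (log2) at a q of 0.05 or less and to -1.11 at 1e-05. The last-exon share turned from 2.102 to -0.12 percentage points with folds of at least 4 and to -1.55 at equal list length, and with those folds the 5′ UTR and intron shares turned to -0.16 and -0.82. The share outside genes, -0.33 as deposited, ranged from -0.86 to 0.21 when 1 list was left out, the latter without 24 h list 2, and was lower at 24 h under the other settings. Qk, with a peak at both times, went from 1 to -1 (0 h lists minus 24 h lists with a peak), that is to more 24 h lists, when genes were assigned by exon. The cause of these turns was not tested. Of the values for single genes, 395 kept their pattern of lists and 178 moved, and under a q of 0.05, equal length, matched coverage and exon assignment alike 57 genes were lost and 6 gained. No paired analysis was possible because the lists name no sample, so their numbers pair nothing. Each time has 2 lists, agreement between them was limited, and depth below the threshold is not seen.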

Other observations

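Peaks on genes that are not protein-coding followed the same direction in number. They included 11 pseudogenes and 3 long noncoding RNAs lost, and 4 pseudogenes, 1 transcribed pseudogene and 1 long noncoding RNA gained. Many shared their peak with a protein-coding gene and are not separate cases. These were all the long noncoding RNAs, the transcribed pseudogene, every gained pseudogene but Gm6563, and the lost Cd63-ps, Gm6142 and Rps16-ps2. Over all symbols 9.8% were lost and 2.8% gained, beside 9.96% and 2.78% of protein-coding genes. Some of the lost pseudogene peaks were as strong as the strongest coding losses. Rps24-ps3, a copy of a ribosomal protein gene, had a peak at chrX:78238785-78239076 with a −log10 p of 58.0 and 42.4 in the 0 h lists. Gm6204, at chr3:53600043-53600277, had 53.8 and 25.8, and Anp32b-ps1, at chr4:143116737-143117000, had 24.1 and 15.4. All 3 were called in a single 48 h list. Fragments of the parent transcripts and of the pseudogenes cannot be told apart in these lists. The nuclear long noncoding RNAs Malat1 and Neat1 had peaks in all 4 lists, and Norad in both 0 h lists and a single 24 h list.

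The peaks on the mitochondrial genome did not follow the decrease in number. They numbered 6 and 4 at 0 h and 6 and 5 at 24 h, on mt-Co1, mt-Cytb, mt-Nd1, mt-Nd2 and mt-Nd5 in 3 of the 4 lists, while 0 h list 2 held mt-Cytb, mt-Nd2 and mt-Nd5. By gene ontology annotation, RNA splicing was attached to 12 of the 154 lost genes (7.79%) and 1 of the 43 gained (2.33%). It was attached to 4 of the 106 genes in all 4 lists (3.77%) and 65 of 1545 annotated genes with a peak (4.21%). This is 1 term of a longer set, given as counts without a test. Only genes in both 0 h lists could be lost, and the term was not counted among them. The hnRNP and SR protein lists above lay near the 41.4% lost of all such genes.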
